A study of Homo sapiens with 9 samples.

Results

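The endoplasmic reticulum (ER) folds and modifies the proteins that a cell secretes or sends to its membranes, and 39 listed genes of that machinery were followed in Rh30 cells: ER chaperones, disulfide isomerases, genes of ER-associated degradation (ERAD), sensors and transcription factors of the unfolded protein response (UPR), and parts of the translocon and early secretory traffic. Members were all probe sets of the array whose only annotated gene symbol is a listed gene, and the brightest of them stood for the gene. By that rule 37 of the 39 genes were measured, among 19775 genes in all, on 90 of 54613 probe sets. SYVN1 was represented only by a probe set that it shares with a microRNA gene, and KDELR2 was not analysed here.

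Rh30 is a human line of fusion-positive rhabdomyosarcoma (FP-RMS), a childhood tumor with muscle features, and every sample carries its PAX3-FOXO1 fusion. RNA was measured in 3 groups of 3 arrays each: spheres collected after 48 h in Neurobasal medium with B27 (1X), bFGF (80 ng/ml), EGF (40 ng/ml) and insulin (50 µg/ml), xenografts grown in SCID/beige mice, and adherent cells grown in RPMI medium with 10% FBS. Media and attachment changed together, so their parts in a difference between spheres and adherent cells cannot be told apart. For the xenografts, the methods of the study describe 1000000 adherent cells in PBS placed in the left gastrocnemius, while the labels describe a flank graft in Matrigel of cells from adherent or sphere culture. All 9 arrays come from 1 cell line, and each value is a log2 value per probe set as normalized by the authors with RMA, a method that corrects for background, aligns the arrays and summarises the probes of each set. Levels of single genes are not set against each other, because probe sets differ in their binding.

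As background, proteins that enter the ER through the SEC61 channel are folded by HSPA5, the HSP70 of the ER lumen, and its partners. Proteins that fail to fold are drawn back to the cytosol and degraded, which is the role of ERAD. Unfolded protein in the ER activates 3 membrane sensors, IRE1 (encoded by ERN1), PERK (encoded by EIF2AK3) and ATF6. IRE1 splices the XBP1 transcript into the mRNA of an active transcription factor, ATF6 is cut to release one, and PERK phosphorylates a translation factor, which favours synthesis of ATF4. Chaperone and ERAD genes are known targets of ATF6 and XBP1, many through the ER stress element (ERSE) of their promoters. Cells with a heavy secretory load, such as plasma cells, carry high levels of this machinery.

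These elements were looked for in the promoters of the members, among which are genes long known as their carriers, and the sequences shown were chosen to set members that rose in spheres beside members that were not called. RefSeq promoters (build GRCh38.p14), which run from 250 bases before to 50 after each gene start, were matched for 33 of the 37 measured members. The ERSE, written as CCAAT, then 9 bases of any kind, then CCACG, was found on either strand in 8 of the 33 (24.2%), against 25 of 27305 genes in the table (0.0916%). The ERSE-II, ATTGG, then 1 base, then CCACG, was found in 3 of the 33 members (9.09%) and in 19 of the 27305 genes (0.0696%). The end CCACG alone was common, in 25 of the 33 members (75.8%) and 42.1% of all genes. In these sequences capitals mark the match, each is read 5′ to 3′ along it, and the HSPA5 sequence is the 250 bases before its start, on the minus strand at chr9:125241344-125241593, with the match at positions -66 to -48 from the start.
HSPA5 ERSE: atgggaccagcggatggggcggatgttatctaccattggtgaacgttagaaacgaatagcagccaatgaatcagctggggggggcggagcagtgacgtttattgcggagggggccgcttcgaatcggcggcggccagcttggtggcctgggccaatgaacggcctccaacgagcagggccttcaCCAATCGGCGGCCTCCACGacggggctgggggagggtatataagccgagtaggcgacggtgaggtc
HSP90B1 ERSE, chr12:103930201-103930249, plus strand: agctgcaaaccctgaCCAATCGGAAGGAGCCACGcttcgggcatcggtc
HSP90B1 ERSE, chr12:103930306-103930354, minus strand: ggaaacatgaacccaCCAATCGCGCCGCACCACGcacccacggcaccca
XBP1 ERSE, chr22:28800588-28800636, minus strand: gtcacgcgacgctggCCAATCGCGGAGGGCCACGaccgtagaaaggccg
CALR ERSE, chr19:12938369-12938417, minus strand: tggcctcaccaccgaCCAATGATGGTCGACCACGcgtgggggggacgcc
CRELD2 ERSE, chr22:49918539-49918587, minus strand: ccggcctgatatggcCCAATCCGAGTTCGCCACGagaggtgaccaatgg
HERPUD1 ERSE-II, chr16:56932010-56932050, plus strand: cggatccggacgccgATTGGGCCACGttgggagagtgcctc
HYOU1 ERSE-II, chr11:119057365-119057405, plus strand: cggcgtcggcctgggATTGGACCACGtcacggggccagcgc
HYOU1 ERSE-II, chr11:119057259-119057299, plus strand: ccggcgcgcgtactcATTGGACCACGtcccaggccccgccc
SDF2L1 ERSE-II, chr22:21642099-21642139, minus strand: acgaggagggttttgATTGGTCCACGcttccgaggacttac

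The ERSE was also found in CANX, ERO1B and PDIA6. CANX has several annotated starts, and its match lies at positions -9 to 10 from the one with the lowest coordinate. The core of another XBP1 and ATF6 element (TGACGTG, UPRE) was found in HYOU1, KDELR3 and SEC61A1, 9.09% of the members and 2.4% of all genes, and in HYOU1 it overlaps the first ERSE-II by 4 bases. A core bound by ATF4 with C/EBP proteins (TGATG, then 1 base, then AA) was found in CREB3L2 and HERPUD1, 6.06% of the members and 4.46% of all genes. A match is a run of letters and not a measured binding site. Only exact matches were counted, so a promoter without one can still hold a variant of the element.

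Across the members, spheres stood above adherent cells and xenografts did not. The mean log2 value of the 37 members was 9.46 to 9.54 on the sphere arrays, 8.82 to 8.90 on the xenograft arrays and 8.97 to 9.004 on the adherent arrays. In spheres 17 of the 37 members rose against adherent cells (limma, adjusted p under 0.05 over all 54613 probe sets), where 13.5% of all genes were higher, and none of the 37 was called lower, where 16.3% of all genes were. At an unadjusted p under 0.05 the counts were 21 higher and 0 lower, and the methods' t-test with adjustment called 21 higher and 1 lower (SDF2L1). The median log2 change of the members was 0.39, with a range of -0.25 to 1.79, beside -0.04 over all genes, and 31 of 37 were above 0. In xenografts 1 member was higher than in adherent cells and 8 were lower, where 12.6% of all genes were higher and 14.3% lower. These shares, here and below, are not matched for brightness. The median adherent log2 value was 9.05 for the members and 6.06 over all genes, and dim genes are harder to call. The members were also chosen with earlier results of these data known.

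**Figure D1:**
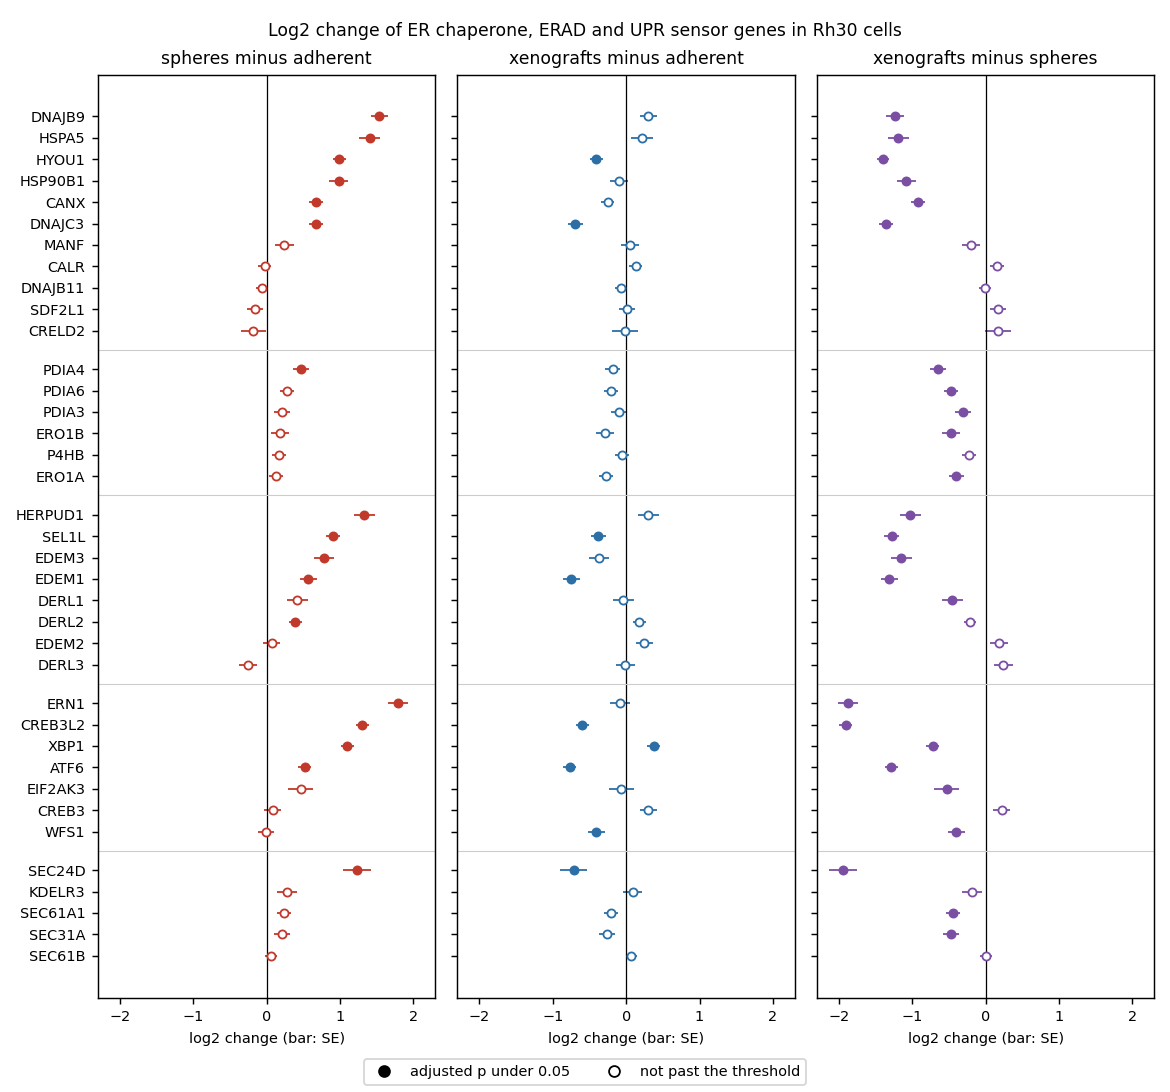
Log2 change of the 37 measured members, ordered within each role by their change in spheres, for spheres minus adherent, xenografts minus adherent and xenografts minus spheres. Points are limma estimates from 3 arrays a group, bars are 1 SE, filled points passed an adjusted p of 0.05, and the grey lines separate the roles: chaperones, disulfide isomerases and oxidases, ERAD, sensors and transcription factors, and translocon and traffic. In the first panel 17 points are filled and all lie right of 0, in the second 8 of 9 filled points lie left of 0, and in the third all 25 do.

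The chaperone group divided into genes that rose in spheres by over 0.6 and genes that moved little. Of 11 members 6 rose in spheres and none fell, with a median log2 change of 0.67. HSPA5, the lumenal HSP70 also known as BiP, had log2 values of 12.63, 13.10 and 13.02 in spheres, 11.92, 11.48 and 11.78 in xenografts and 11.45, 11.66 and 11.43 in adherent cells. All 3 sphere arrays lay above the other 6 arrays, the change against adherent cells was 1.40 ± 0.15, adjusted p = 2.6e-05 (limma, SE, n = 3 each), a 2.64-fold difference. DNAJB9, a co-chaperone that passes unfolded proteins to degradation and restrains IRE1, had values of 10.20, 10.18 and 10.42 in spheres, 9.19, 8.80 and 9.11 in xenografts and 8.64, 8.79 and 8.76 in adherent cells. The sphere arrays again stood clear of the rest, and the log2 change in spheres was 1.54 ± 0.12, adjusted p = 3.0e-06.

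HYOU1, the nucleotide exchange factor of HSPA5, read 9.59, 9.64 and 9.76 in spheres, 8.32, 8.20 and 8.29 in xenografts and 8.66, 8.68 and 8.68 in adherent cells. The 3 groups did not overlap, with spheres on top and xenografts at the bottom, and the change in spheres was 0.99 ± 0.09, adjusted p = 7.8e-06. For HSP90B1, the HSP90 of the ER lumen, the arrays gave 10.53, 11.02 and 10.75 in spheres, 9.84, 9.66 and 9.55 in xenografts and 9.76, 9.82 and 9.77 in adherent cells. The sphere arrays lay above all others, while xenograft and adherent arrays overlapped, and the change in spheres was 0.98 ± 0.13, adjusted p = 1.2e-04. Both probe sets that HSP90B1 shares with a microRNA gene gave 0.86 and 0.66, also past the threshold. DNAJC3, a co-chaperone of HSPA5, rose by 0.67 and the membrane lectin CANX (calnexin) by 0.67, each 1.59-fold.

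The other 5 chaperone genes did not pass the test in spheres. MANF, a lumenal factor that can be secreted, changed by 0.24 (adjusted p = 0.2). CALR, the soluble lectin related to CANX, changed by -0.03, with a 95% interval of -0.22 to 0.17. The co-chaperone DNAJB11 changed by -0.06, its partner SDF2L1 by -0.16 and CRELD2, a lumenal protein known from ER stress, by -0.18. CALR and CRELD2 carry the ERSE and SDF2L1 the ERSE-II. Over the matched promoters, the ERSE was found in 4 of 16 members that rose in spheres (25%) and in 4 of 17 that were not called (23.5%), and the ERSE-II in 2 of the 16 (12.5%) and 1 of the 17 (5.88%).

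**Figure D2:**
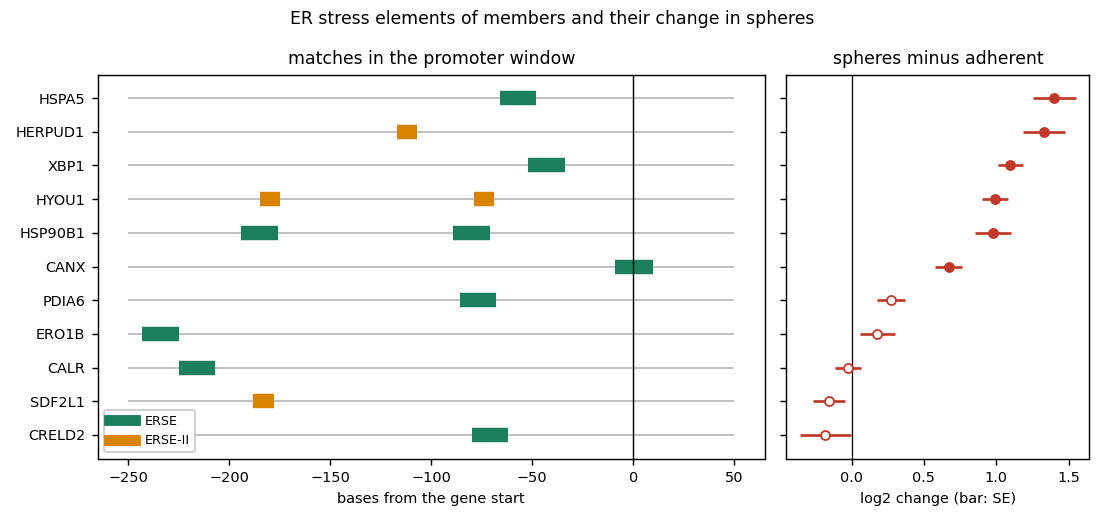
Position of ERSE and ERSE-II matches in the promoter window of 11 members, in bases from the gene start (left), beside the log2 change of each member in spheres minus adherent cells with 1 SE (right, filled where adjusted p was under 0.05, n = 3 arrays a group). Members with a match span changes from -0.18 in CRELD2 to 1.40 in HSPA5, and 6 of the 11 passed the test.

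The disulfide isomerases and oxidases, which form and rearrange disulfide bonds, changed little at their brightest probe sets. All 6 were above 0 in spheres, with a median of 0.19, and 1 passed the test. This was PDIA4, with log2 values of 10.39, 10.48 and 10.50 in spheres, 9.99, 9.64 and 9.78 in xenografts and 9.90, 10.03 and 10.03 in adherent cells. The sphere arrays lay above the other 6, and the change was 0.47 ± 0.10, adjusted p = 0.0056, but its second probe set gave -0.18 (adjusted p = 0.4). P4HB, the classical protein disulfide isomerase, changed by 0.17, PDIA6 by 0.27 (adjusted p = 0.062), with 1 of its other 3 probe sets past the test (0.27), and PDIA3, which works with calnexin and calreticulin, by 0.21. A dimmer PDIA3 probe set went the other way and passed the test, at -0.67 (adjusted p = 0.0047).

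ERO1A and ERO1B encode the oxidases that recharge these isomerases. At the brightest probe set ERO1A changed by 0.12 in spheres (adjusted p = 0.43) and ERO1B by 0.18. The other 2 probe sets of ERO1A rose by 1.41 (adjusted p = 8.7e-05) and 0.79 (adjusted p = 0.001), and the second of ERO1B by 0.78. For both oxidases the call therefore depends on the probe set.

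Of 8 measured ERAD genes 5 rose in spheres and none fell, with a median of 0.49. HERPUD1, a membrane scaffold of the degradation complex, had log2 values of 12.06, 12.04 and 12.07 in spheres, 10.63, 11.24 and 11.21 in xenografts and 10.62, 10.72 and 10.83 in adherent cells. Sphere arrays were the highest and nearly identical, xenograft replicate 1 lay among the adherent arrays, and the change in spheres was 1.33 ± 0.14, adjusted p = 3.6e-05, 2.52-fold. SEL1L, the adaptor of the ubiquitin ligase HRD1, gave 9.90, 9.71 and 9.84 in spheres, 8.69, 8.46 and 8.46 in xenografts and 8.86, 8.96 and 8.92 in adherent cells. No groups overlapped, and the change in spheres was 0.90 ± 0.10, adjusted p = 3.7e-05.

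EDEM1 and EDEM3 belong to the mannosidase-like proteins that mark glycoproteins for degradation. The values of EDEM1 were 8.48, 8.37 and 8.46 in spheres, 6.86, 7.31 and 7.20 in xenografts and 7.82, 7.92 and 7.87 in adherent cells, again with 3 separate groups, and it rose by 0.57 ± 0.12, adjusted p = 0.0033 in spheres. EDEM3 had 7.64, 7.73 and 7.92 in spheres, 6.90, 6.39 and 6.56 in xenografts and 6.84, 7.15 and 6.96 in adherent cells. Here xenograft and adherent arrays overlapped, and the rise in spheres was 0.78 ± 0.14, adjusted p = 0.0012. EDEM2 changed by 0.07. Among the derlins, membrane proteins of the export channel, DERL2 rose by 0.39, DERL1 changed by 0.42 (adjusted p = 0.056) and DERL3 by -0.25. The probe set of SYVN1, which encodes HRD1, was shared with MIR6751 and read 0.38 higher in spheres (adjusted p = 0.031).

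Of 7 sensors and transcription factors 4 rose in spheres and none fell, with a median of 0.52. ERN1, the gene of IRE1, had log2 values of 7.73, 7.78 and 7.71 in spheres, 5.59, 5.81 and 6.19 in xenografts and 6.03, 5.82 and 5.99 in adherent cells. The sphere arrays stood far above every other array, and the change was 1.79 ± 0.14, adjusted p = 2.7e-06, 3.46-fold, the largest of the 37 members. A second probe set rose by 2.96 (adjusted p = 2.2e-07), and the dimmest, with a mean log2 value of 4.17, changed by -0.02. EIF2AK3, the gene of PERK, gave 8.47, 8.81 and 8.92 in spheres, 8.58, 8.06 and 7.98 in xenografts and 8.12, 8.48 and 8.22 in adherent cells. Sphere replicate 1 lay just below adherent replicate 2, and the change of 0.46 ± 0.17, adjusted p = 0.067, did not pass the test. ATF6 had 9.57, 9.58 and 9.56 in spheres, 8.23, 8.38 and 8.24 in xenografts and 8.97, 9.05 and 9.13 in adherent cells, with 3 separate groups and a rise of 0.52 ± 0.09, adjusted p = 9.2e-04 in spheres.

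XBP1, the transcription factor gene downstream of IRE1, had 9.14, 9.02 and 9.20 in spheres, 8.43, 8.35 and 8.43 in xenografts and 8.03, 8.05 and 7.998 in adherent cells. The groups did not overlap, and the rise in spheres was 1.10 ± 0.09, adjusted p = 3.5e-06, 2.14-fold, while a dim second probe set, with a mean log2 value of 3.48, changed by -0.08. These values are transcript levels, and splicing of XBP1, cleavage of ATF6 and activity of the kinases were not measured. CREB3L2, a membrane-bound relative of ATF6, had 10.44, 10.40 and 10.46 in spheres, 8.41, 8.57 and 8.61 in xenografts and 9.15, 9.17 and 9.07 in adherent cells, also without overlap, and rose by 1.30 ± 0.09, adjusted p = 1.3e-06. Its relative CREB3 changed by 0.08 and WFS1, an ER membrane protein linked to calcium and to control of ATF6, by -0.01.

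In the translocon and early traffic group, 1 of 5 measured genes rose in spheres, and the median was 0.24. SEC24D, a cargo adaptor of the COPII coat that carries proteins out of the ER, gave 7.70, 7.89 and 7.89 in spheres, 6.13, 5.93 and 5.60 in xenografts and 6.48, 7.05 and 6.27 in adherent cells. Sphere arrays lay above the rest, adherent replicate 2 lay above the other 2 adherent arrays, and the change was 1.23 ± 0.19, adjusted p = 4.2e-04. The channel subunits SEC61A1 and SEC61B changed by 0.24 and 0.06, SEC31A of the outer COPII coat by 0.21 and KDELR3, a receptor that returns escaped chaperones, by 0.27. Second probe sets passed the test for KDELR3 (0.64), SEC31A (0.37), SEC61A1 (0.39) and SEC61B (1.44), the last one dim, with a mean log2 value of 4.17.

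**Figure D3:**
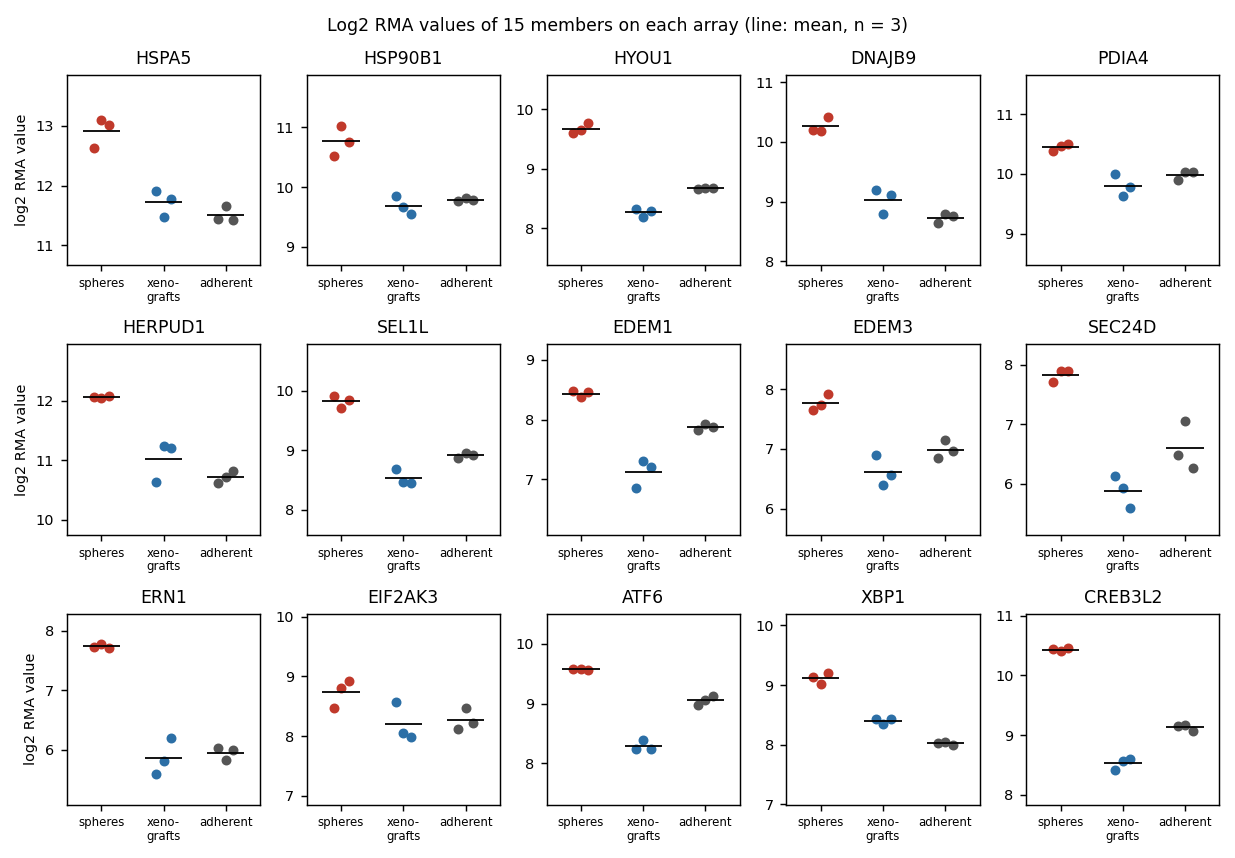
Log2 RMA values of 15 members on each of the 3 sphere, 3 xenograft and 3 adherent arrays (points) with the group mean (line). Every panel spans 3.2 log2 units. Sphere arrays lie above all adherent arrays except for EIF2AK3, where sphere replicate 1 lies just below adherent replicate 2, and xenograft arrays of HYOU1, SEL1L, EDEM1, SEC24D, ATF6 and CREB3L2 lie below all adherent arrays. Apart from HSPA5, XBP1, ATF6, ERN1 and EIF2AK3, the panels show members chosen for a large change past the threshold. The separation therefore follows in part from that choice, and its share over all genes was not counted.

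No member that rose in spheres lost its call when any single array was left out. Among the members not called, leaving out sphere replicate 1 brought in DERL1 (0.50, adjusted p = 0.040) and EIF2AK3 (0.59, adjusted p = 0.032). Leaving out a xenograft array changes only the shared spread: DERL1, EIF2AK3 and PDIA6 passed without xenograft replicate 1 (adjusted p = 0.016, 0.022 and 0.040), PDIA6 without replicate 2 (0.035) and DERL1 and MANF without replicate 3 (0.026 and 0.048). An RNA control moved with the spheres as well. The 3′ probe set of the ACTB control exceeded its 5′ probe set by 3.20 ± 0.09 in spheres and 2.39 ± 0.30 in adherent cells (SD, n = 3, exact permutation p = 0.1, the smallest this design allows), while for GAPDH sphere arrays gave 0.62 ± 0.05 and adherent arrays 0.54 ± 0.13 (exact permutation p = 0.5). Their part in the results was not tested.

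In xenografts the members lay near their adherent levels, with a subset below. The median log2 change was -0.08, beside 0.08 over all genes, and the range was -0.77 to 0.38. XBP1 was the member that rose, by 0.38 ± 0.09, adjusted p = 0.0089, and HSPA5 changed by 0.21 (adjusted p = 0.31, 95% interval -0.11 to 0.53), with overlapping arrays. The 8 that fell came from 4 of the 5 roles. They included the chaperone genes HYOU1 (-0.41) and DNAJC3 (-0.69) and the ERAD genes SEL1L (-0.38) and EDEM1 (-0.75). The others were ATF6 (-0.77), CREB3L2 (-0.60) and the ER membrane protein gene WFS1 (-0.41) from the sensor and factor group, and SEC24D (-0.72).

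ATF6 fell to 0.588 of its adherent level (adjusted p = 1.2e-04), and 2 of its other 3 probe sets fell as well. EDEM1 had a log2 change of -0.75 ± 0.12 (adjusted p = 8.7e-04). For CREB3L2 the second probe set gave 0.26 (adjusted p = 0.3), opposite to the brightest, and the mean of its probe sets changed by -0.035 (adjusted p = 0.75). ERN1 (-0.08) and EIF2AK3 (-0.07) did not pass. DNAJB9 (0.30), HERPUD1 (0.30) and CREB3 (0.30) were above 0 without a call. The disulfide group had no call in xenografts, with all 6 changes between -0.29 and -0.06.

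Probe sets other than the brightest also differed in xenografts. KDELR3 changed by 0.09 at the brightest and by -0.85 at the second (adjusted p = 9.3e-05). The second probe set of HSPA5 fell by 0.38 (adjusted p = 0.03), that of DERL2 by 0.58 and that of SEC31A by 0.53, while one DERL1 probe set rose by 0.37 and one P4HB probe set by 0.44. The second probe set of WFS1 fell by 0.70, one of CANX by 0.45 (adjusted p = 0.011) and one of EDEM3 by 0.57. For SEL1L the other 3 probe sets were not called, at 0.16, -0.06 and -0.38. For DNAJC3, 1 of the other 3 probe sets changed by 0.05 where the other two fell. PDIA3 fell at both dimmer probe sets, by 0.36 and 0.66, and PDIA6 at one, by 0.36.

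**Figure D4:**
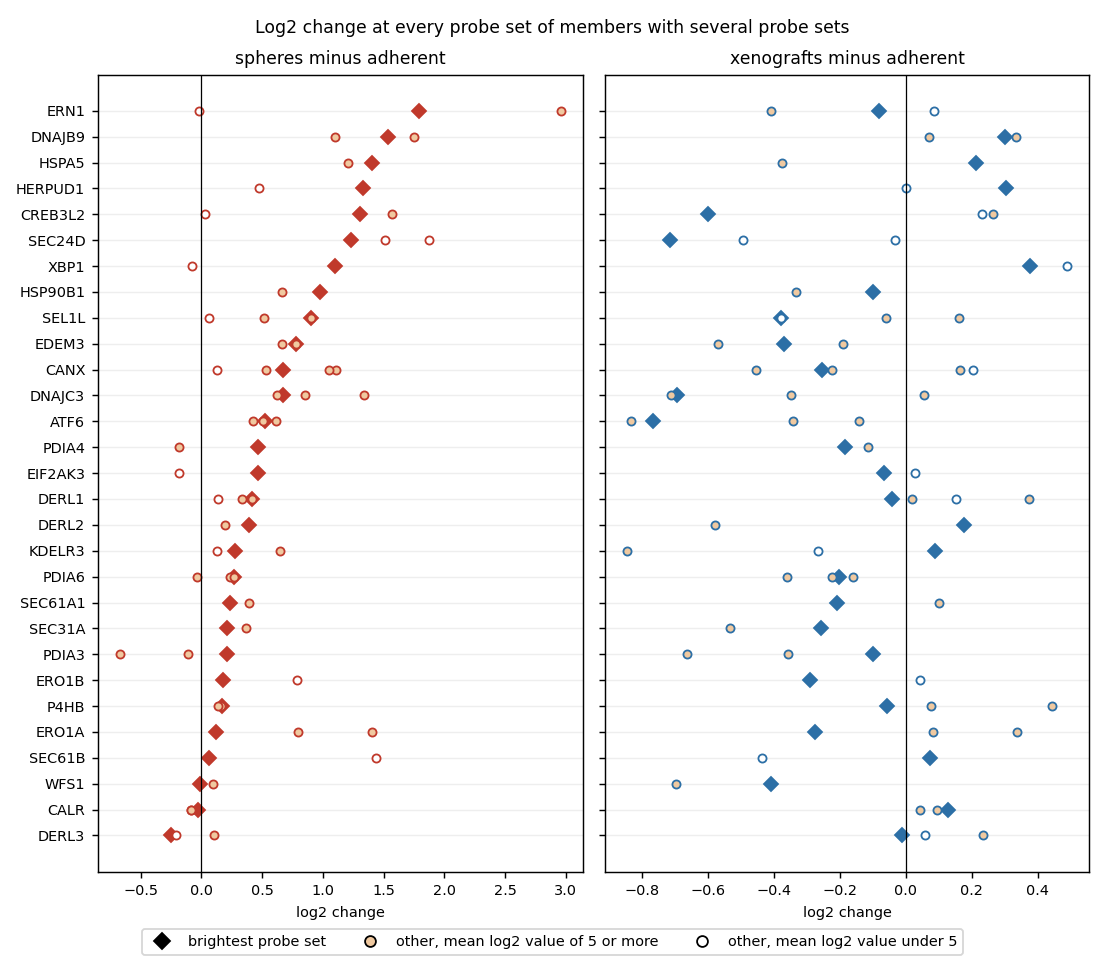
Log2 change at every probe set of the 29 members with several probe sets, for spheres minus adherent (left) and xenografts minus adherent (right), ordered by the change of the brightest probe set in spheres. Diamonds are the brightest probe sets, and open circles are probe sets with a mean log2 value under 5. In spheres the probe sets of HSPA5, DNAJB9, SEC24D and ATF6 all lie right of 0, and those of ERO1A span 0.12 to 1.41.

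The xenograft split depended on scaling. With quantile normalization 5 members were higher (XBP1, DNAJB9, EDEM2, DERL2 and CREB3) and 5 lower, with HYOU1, SEL1L and WFS1 no longer called, the median was -0.01, and the medians of the chaperone and ERAD groups turned to 0.09 and 0.06. All genes moved with it, with 3015 higher and 2111 lower, against 2500 and 2829 as deposited and 1836 and 3252 after centring on array medians. Calls also changed when single arrays were left out. WFS1 lost its call without xenograft replicate 1 (-0.29, adjusted p = 0.052). Without adherent replicate 1, 2 or 3 its change stayed at -0.41, but the call was lost (adjusted p = 0.062, 0.072 and 0.072). SEL1L lost its call without xenograft replicate 2 (-0.34, 0.052) or adherent replicate 2 or 3 (0.067 and 0.059). SEC24D lost its call without xenograft replicate 3 (-0.57, 0.064) or adherent replicate 2 (-0.49, 0.062). Without adherent replicate 2 the lower members numbered 5. Without xenograft replicate 1 the higher members numbered 3, with HERPUD1 at 0.50 (adjusted p = 0.0036) and CREB3 at 0.40 (0.027), WFS1 no longer fell, and EDEM3 (-0.51, 0.013) and SEC31A (-0.37, 0.014) did. Without xenograft replicate 2 DNAJB9 passed (0.42, 0.022), and without replicate 3 CANX (-0.32, 0.034), ERO1A (-0.34, 0.033) and ERO1B (-0.39, 0.045) were lower.

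Stromal markers moved with the xenografts. In xenografts 5 of 8 fibroblast and matrix genes were higher and 1 was lower than in adherent cells, among them LUM (2.82) and COL1A2 (1.30), and the mean of the list was 6.26 to 6.78 in xenografts, 5.56 to 5.75 in spheres and 5.64 to 5.81 in adherent cells. None of 5 measured macrophage and leukocyte genes was called, and PTPRC, which marks leukocytes, stayed at 2.60 to 2.64 in xenografts. The endothelial gene called higher, 1 of 5 in each group, was VWF (0.73) in spheres and KDR (0.60) in xenografts. KDR was dim, at 3.44 to 3.52 in xenografts. Beside the counts of these lists, 13.5% of all genes were higher and 16.3% lower in spheres, and 12.6% and 14.3% in xenografts. The muscle regulator MYOD1 averaged 10.9 in xenografts, 11.1 in spheres and 11.1 in adherent cells, while MYF5, another muscle regulator, was at 2.68 to 3.21 on every array. Of the 8 genes of the Rh30 list 4 were lower in spheres, MYOG (-0.91), CHRNA1 (-0.64), FOXO1 (-0.53) and DES (-0.38). Also 4 were lower in xenografts, CHRNA1 (-0.82), FOXO1 (-0.56), PAX3 (-0.54) and DES (-0.51), and none was higher in either. Mouse RNA is read by these human probes only where sequences match, and fewer cells of a type and less RNA per cell cannot be told apart in bulk RNA. The array's polyA control probe sets, made for RNAs spiked in before labelling, averaged 8.18 ± 0.41 in xenografts and 7.48 ± 0.19 in adherent cells (SD, n = 3, exact permutation p = 0.1, the smallest possible), while the ACTB difference was 2.48 ± 0.23 in xenografts and 2.39 ± 0.30 in adherent cells (exact permutation p = 0.8). The part of host cells and of the controls in the member values was not tested.

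Set directly against spheres, xenografts were lower at 25 of 37 members and higher at none, where 18.3% of all genes were lower and 25.7% higher. At an unadjusted p under 0.05 limma gave 27 lower and 0 higher, and the methods' t-test with adjustment 19 lower and 0 higher. The median log2 change was -0.47, beside 0.13 over all genes, and the range was -1.95 to 0.24. It was -0.93 for chaperones, -0.43 for disulfide genes, -0.74 for ERAD, -0.72 for sensors and factors and -0.45 for translocon and traffic genes. This contrast shares its sphere arrays with the first and its xenograft arrays with the second, so it is not a further sample of either. The RNA controls also differed here: the ACTB difference was 2.48 ± 0.23 in xenografts and 3.20 ± 0.09 in spheres, and the polyA controls averaged 8.18 ± 0.41 in xenografts and 7.30 ± 0.21 in spheres (SD, n = 3, exact permutation p = 0.1 for each, the smallest possible), and their part in these differences was not tested.

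The largest differences between xenografts and spheres were in SEC24D (-1.95 ± 0.19, adjusted p = 1.1e-05), CREB3L2 (-1.90 ± 0.09, adjusted p = 7.8e-08) and ERN1 (-1.87 ± 0.14, adjusted p = 1.5e-06). Chaperone genes followed with HYOU1 (-1.40), DNAJC3 (-1.36), DNAJB9 (-1.23), HSPA5 (-1.19), HSP90B1 (-1.08) and CANX (-0.93). Of the ERAD genes, EDEM1 fell by 1.31, SEL1L by 1.28, EDEM3 by 1.15, HERPUD1 by 1.03 and DERL1 by 0.46. ATF6 fell by 1.29, XBP1 by 0.72, EIF2AK3 by 0.53 and WFS1 by 0.40. For XBP1 the mean of both probe sets changed by -0.077 (adjusted p = 0.41), and the dim one alone rose (0.57, adjusted p = 0.005). In the disulfide group PDIA4, PDIA6, ERO1B, ERO1A and PDIA3 fell, by 0.65, 0.47, 0.47, 0.40 and 0.31, and in the traffic group SEC31A and SEC61A1 fell by 0.47 and 0.45. The shared SYVN1 probe set fell by 0.54 (adjusted p = 0.0032).

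The 12 members not called at their brightest probe sets were DNAJB11, SDF2L1, MANF, CRELD2, CALR, P4HB, EDEM2, DERL2, DERL3, CREB3, SEC61B and KDELR3. Their changes lay between -0.23 and 0.24, but other probe sets differed. KDELR3 read -1.49 (adjusted p = 5.7e-07) at its brightest probe set whose name does not end in _x_at or _s_at. When all probe sets of a gene were averaged, KDELR3 (-0.69), DERL2 (-0.49) and SEC61B (-0.93) passed the test. With quantile normalization 3 members were higher (SDF2L1, EDEM2 and CREB3) and 23 lower. Several calls near the threshold were lost when a single array was left out. PDIA3 (adjusted p = 0.045 with all arrays) kept its call only when sphere replicate 1 was the array left out. Otherwise its change was -0.33 to -0.22, with an adjusted p of 0.055 to 0.17. Leaving out an adherent array changes only the shared spread here. The PDIA3 change then stayed at -0.31 (adjusted p = 0.055, 0.057 and 0.064). DERL1 lost its call without sphere replicate 2 or 3 (adjusted p = 0.099 and 0.081) or xenograft replicate 2 or 3 (0.066 and 0.095), EIF2AK3 without the same arrays (0.083, 0.11, 0.087 and 0.097), and WFS1 without sphere replicate 1 or 3 (0.052 and 0.054). Without xenograft replicate 1 CRELD2 (0.41, adjusted p = 0.013) and CREB3 (0.31, 0.048) were higher, without replicate 2 SDF2L1 was (0.28, 0.0497), and without replicate 3 MANF was lower (-0.35, 0.013).

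Further genes of the same pathways were counted from lists of their own, to be read beside the shares of all genes called, 13.5% higher and 16.3% lower in spheres and 12.6% higher and 14.3% lower in xenografts. Like the members, these lists were chosen with earlier results of these data known, so their counts are a description and not independent support. Of 15 measured other ER folding genes 7 rose in spheres and none fell, with a median of 0.24, led by UGGT2 (1.54), a relative of the glucosyltransferase that tests glycoprotein folding, and SIL1 (1.07), an exchange factor of HSPA5. In xenografts 2 rose, SIL1 (0.61) and the prolyl isomerase FKBP2 (0.45), and 4 fell, led by FKBP11 (-1.24) and FKBP14 (-0.65) of the same family.

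Among 17 measured other ERAD genes 6 rose and 5 fell in spheres, with a median of 0.05. The rises were led by ERLIN2 (0.85) and the lectin gene ERLEC1 (0.77), and the falls by UFD1 (-1.15) and NPLOC4 (-0.81), the paired cofactors of the VCP ATPase that pulls proteins out of the ER. In xenografts 5 rose, led by the ubiquitin ligase gene RNF5 (1.17) and ERLIN2 (0.58). The RNF5 probe set was dim, with a mean log2 value of 4.36. Another 5 fell, led by NPLOC4 (-0.58) and the ubiquitin-conjugating enzyme gene UBE2G2 (-0.52).

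Translocation, signal peptidase and glycosylation genes rose at 8 of 20 in spheres with none lower, led by SSR3 (1.46) of the translocon-associated complex and SEC11C (0.66) of the signal peptidase. In xenografts 4 rose, led by SEC11C (0.67) and SSR4 (0.61), and 2 fell, STT3B (-0.54), a catalytic subunit of oligosaccharyltransferase, and SPCS3 (-0.51). Of 14 other COPII and retrieval genes 3 rose in spheres, led by the cargo receptor gene LMAN1 (0.50) and SEC23B (0.46), and 4 fell in xenografts, led by SEC24B (-0.65) and SEC16A (-0.64).

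Of 11 other UPR regulators 4 were higher and 2 lower in spheres. CREB3L4 (1.03), a relative of CREB3L2, and TMBIM6 (0.64), an inhibitor of cell death in the ER membrane, led the rises, and the falls were RTCB (-0.51), the ligase that rejoins the XBP1 transcript after IRE1 cuts it, and EIF2S1 (-0.35), the translation factor that PERK phosphorylates. In xenografts 4 rose and none fell, led by CREB3L4 (0.85) and TMBIM6 (0.63). The list of PERK-ATF4 outputs was chosen when its rise in spheres was known. Of its 12 genes 11 were higher in spheres, with a median of 1.98, led by TRIB3 (3.18) and DDIT3 (3.01). In xenografts 5 of 12 were higher, with a median of 0.42, led by DDIT4 (1.85) and CHAC1 (1.30). Whether PERK had a part in these rises was not tested. None of 5 plasma cell markers was called higher than in adherent cells, where 13.5% of all genes were in spheres and 12.6% in xenografts. SDC1 fell in both, and IRF4 fell in spheres (-0.40). Set against spheres, IRF4 was higher in xenografts (0.58, adjusted p = 6.3e-04). JCHAIN was dim, with averages of 1.97 in spheres, 1.90 in xenografts and 1.97 in adherent cells.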

How the data were processed

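The authors hybridized RNA of 3 biological replicates a group to Affymetrix HG-U133 Plus 2.0 arrays and normalized them by RMA (version not given in the sources used here), and the deposited values used here are log2 values per probe set. Array medians were 4.78 to 4.87. All 54613 probe sets other than the 62 controls entered 1 limma fit (version 3.58.1, R 4.3.3, lmFit and eBayes, 6 residual degrees of freedom). P-values were adjusted over these probe sets (Benjamini-Hochberg) and called at 0.05. The fit was tested on simulated data. Annotation gave a single symbol to 41091 probe sets, several to 1801 and none to 11721. The members and lists were chosen with earlier results of these data known. Values per array were given for HSPA5, XBP1, ATF6, ERN1, EIF2AK3 and, in each role, up to 4 members with the largest change against adherent cells past the threshold, other probe sets where they differed, and up to 2 genes a direction of other lists. RNA controls were compared by two-sided exact permutation tests. Alternatives were 2 scalings, brighter probe sets alone, fits on the 2 compared groups, a variance trend, a replicate block, the methods' t-test, other choices of probe set and each array left out. A planned reading of protein ends was not run.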

Additional observations from a re-analysis of the deposited data

How the results depend on the processing

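In spheres 13 to 23 members were higher under the alternatives, against 17. The 13 were among 29 members with a probe set whose name does not end in _x_at or _s_at. Of the 17 called members 1 (PDIA4) lost its call under some alternative. In xenografts against adherent cells 6 of the 9 called members did, and 10 of 25 in xenografts against spheres, where 18 (of the same 29) to 27 were lower. The methods' t-test with adjustment called 1 member lower in spheres and 4 lower in xenografts against adherent cells. Quantile normalization gave 5 members higher and 5 lower in xenografts against adherent cells, and 3 higher in xenografts against spheres. Leaving out 1 array gave 1 to 3 members higher and 5 to 10 lower in xenografts against adherent cells, and 0 to 2 higher in xenografts against spheres.

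Signs changed with the choice of probe set, the scaling and the arrays included. With the brightest probe set whose name does not end in _x_at or _s_at, PDIA4 read -0.18 and PDIA6 -0.0363 in spheres. By the same choice CREB3L2 read 0.26 and KDELR3 -0.85 in xenografts against adherent cells, and PDIA4 0.0694 in xenografts against spheres. When all probe sets of a gene were averaged, ERO1A read 0.048, DERL2 -0.20 and KDELR3 -0.34 in xenografts against adherent cells, and SEC61B -0.93 in xenografts against spheres, where it read -0.025 after quantile normalization and -0.00261 after median centring. Leaving out 1 array gave KDELR3 -0.0233 to 0.19 in xenografts against adherent cells, and CRELD2 -0.00759 to 0.41 and SEC61B -0.00466 to 0.0304 in xenografts against spheres. Same-numbered arrays deviated together (r over 0.1) in 2 of 9 pairs, from -0.19 to 0.24. With 3 arrays a group this cannot show whether same-numbered arrays were paired. With the replicate block the counts stayed at 17 and 0, 1 and 8, and 0 and 25. The cause of these changes was not tested. The 3 arrays a group limit precision, and changes at dim probe sets lie close to background.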
